A study of Homo sapiens with 12 samples.

Results

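The genes described here are 9 known transcriptional targets of the tumor suppressor p53, namely MDM2, MDM4, ZMAT3, FAS, TP53I3, SESN1, RRM2B, GDF15 and FDXR. The rule for their choice names gene symbols only, and all 9 were found among the 15798 genes of the count table. HCT116 cells, a human colorectal cancer line, were exposed for 24 h to 100 nM of the MEK1/2 inhibitor trametinib or to the solvent DMSO. Ribosome profiling (Ribo-seq) was then performed on 3 biological replicates per treatment. Every library, DMSO included, came from cells given cycloheximide just before lysis to hold ribosomes in place. Each lysate gave an input library (IN), which reads mRNA abundance in the cytoplasm, and a library of ribosome protected fragments (RPF), which reads the mRNA stretches occupied by ribosomes, so that there were 4 groups of 3 libraries. One cell line, one dose and one time point were sampled.

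p53 is a transcription factor that is kept scarce in unstressed cells because the ubiquitin ligase MDM2, together with its relative MDM4, binds it and drives its degradation. DNA damage and other stresses interrupt this binding, and p53 then activates genes for cell cycle arrest, DNA repair, metabolism and death. MDM2 is itself activated by p53, which closes a negative feedback loop.

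p53 binds DNA as a tetramer, and its consensus element consists of a pair of half-sites of 10 bases. The half-site was searched by its published consensus, named here the p53 half-site, on both strands of 300-base windows around RefSeq gene starts (GRCh38.p14). There were 17 such windows for 8 of the 9 genes. A pair of directly adjacent half-sites with at most 1 mismatch in each was present in 2 overlapping windows of 1 gene, MDM2, and in 0.387% of 35114 windows of all genes. A half-site without mismatch was present in 3 of the 17 windows, 1 for each of 3 further genes, against 6.63% of all windows. These 4 stretches are shown because they hold all matches of these 2 kinds around the searched starts. With a spacer of up to 13 bases allowed between the half-sites, a pair was also found in windows of FAS and SESN1. Those pairs lie outside the stretches shown. Pairs of this wider kind occurred in 5.25% of all windows. Capitals mark the half-sites, and each sequence is written in the direction of the gene.
MDM2: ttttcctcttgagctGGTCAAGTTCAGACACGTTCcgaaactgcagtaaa
FAS: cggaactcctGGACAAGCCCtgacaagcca
SESN1: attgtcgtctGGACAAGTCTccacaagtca
FDXR: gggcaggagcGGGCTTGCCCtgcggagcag
The MDM2 stretch lies at chr12:68808908-68808957 on the plus strand, within an intron by the Gencode annotation and with its first half-site beginning 94 bases before the start of the window's transcript. Each of its half-sites carries 1 mismatch. The FAS stretch (chr10:88991299-88991328, plus strand) lies in an annotated exon and the SESN1 stretch (chr6:109009018-109009047, minus strand) lies within the gene but outside exons. The FDXR stretch (chr17:74872986-74873015, minus strand) is exonic. These are matches of letters only, and binding of p53 was not measured.

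Total counts per library ranged from 2276693 to 2845568 for input and from 10127477 to 19181588 for footprints. Over all genes, the SE of a log2 change had a median of 0.217 in input, 0.16 in footprints and 0.294 in ribosome density. FAS, for example, rested on only 19 to 32 input counts per library. The epithelial markers EPCAM, CDH1, KRT8, KRT18, KRT19 and CDX2 were present in every library, while VIL1 was at 0 in all input libraries and at most at 0.737 normalized counts in footprints. Levels are given as normalized counts, that is counts divided by a size factor of the library. Markers of blood, endothelial, mesenchymal and glial cells summed to between 42.8 and 113 normalized counts, against 29269 to 88800 for the epithelial list, and CD3E was at 0 in all input libraries. Most of the smaller sum was COL1A1, at 36.0 to 90.0 in input and 37.6 to 55.9 in footprints. CDX2, the lowest of the epithelial markers present in every library, was at 60.5 to 117 and 62.5 to 109. All 10 of 10 ERK output genes were lower with trametinib in both assays, beside 16.8% of all tested genes in input and 24.5% in footprints. In some other fits, such as footprints scaled to library totals, the count was 9. Library DMSO replicate 1 stood apart from the other DMSO libraries in both assays, with the highest sums of ERK output and of stress response mRNAs. Named changes that moved by more than 1.5-fold when it was left out are given with and without it. In a bulk culture, fewer cells that express a gene and less RNA per cell cannot be told apart.

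The first question was whether the mRNAs of these p53 targets, or the ribosomes on them, changed when MEK was inhibited. They did not move as a block. ZMAT3, TP53I3 and FDXR rose in both assays, MDM4 and GDF15 fell in both, FAS fell in footprints, and MDM2, SESN1 and RRM2B passed the test in neither. In input, 3 of 9 genes were higher and 2 were lower at an adjusted p-value under 0.05 in edgeR's quasi-likelihood test. Among all 10663 genes tested, 32.1% passed, 15.4% as higher and 16.8% as lower. In footprints, 3 of 9 were higher and 3 lower, beside 48.6% of 11941 genes, 24.1% as higher and 24.5% as lower. In ribosome density, that is footprints relative to input, 0 of 9 changed, beside 1.74% of 10623 genes, with 0.329% higher and 1.41% lower. Without DMSO replicate 1 the counts among the 9 genes were the same in all 3 comparisons. All 9 genes passed the filter on low counts in each comparison. The median log2 change of the 9 genes was 0.18 in input and 0.20 in footprints, while the median of all genes was -0.001 and 0.002.

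**Figure D1:**
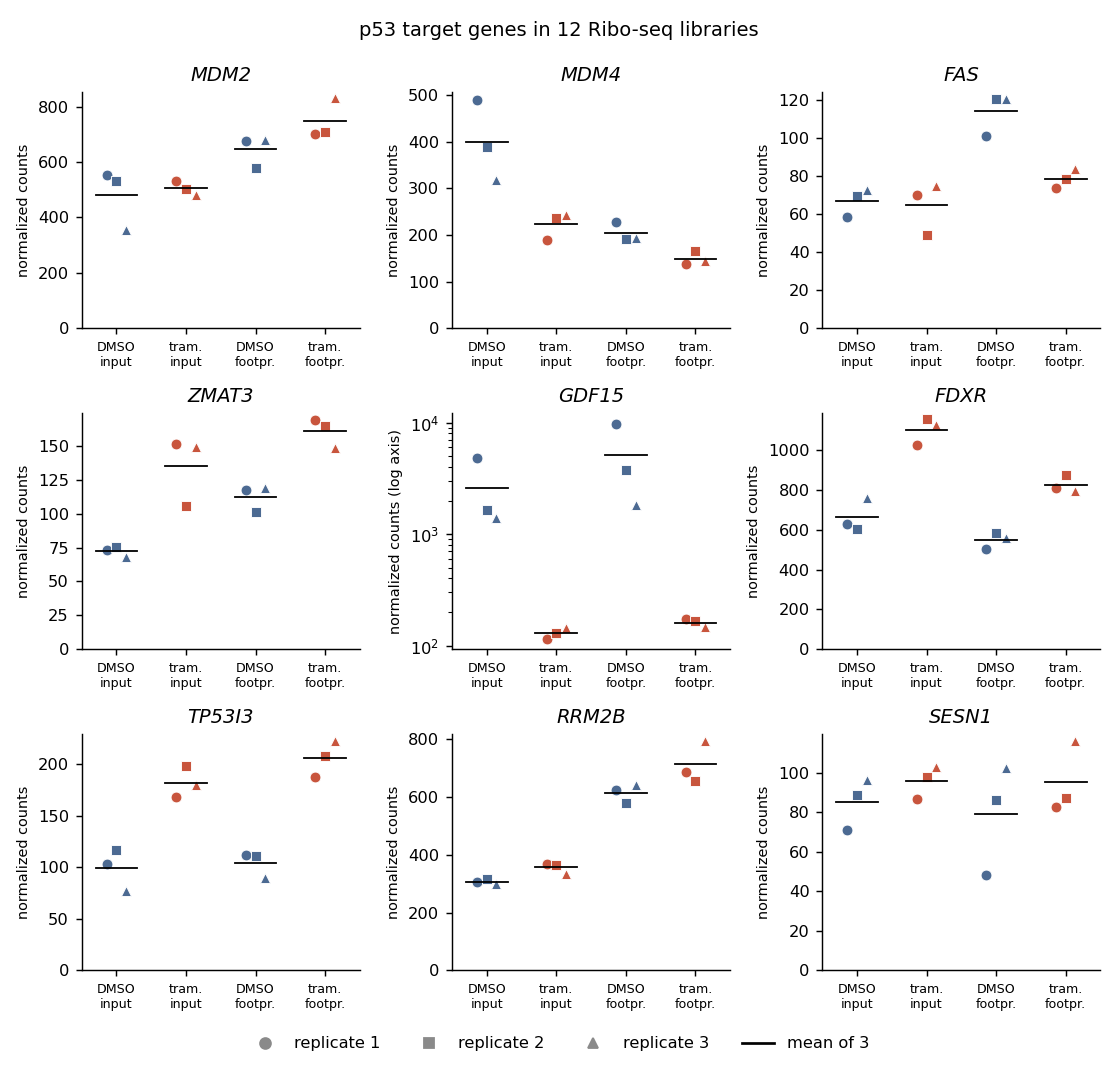
Normalized counts of the 9 p53 target genes in each of the 12 libraries, with 1 panel per gene, the mean of 3 libraries as a line and replicate numbers as symbols; the GDF15 axis is logarithmic and all others start at 0. TP53I3, ZMAT3 and FDXR are higher in all trametinib libraries of both assays, while GDF15 drops from 1386 to 4823 normalized counts in DMSO input to 116 to 144 with trametinib.

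Of the negative regulators of p53 among the 9 genes, MDM4 fell and MDM2 did not pass the test. MDM2 (chr12:68808177-68845544, plus strand), the ligase that targets p53 for degradation, had 554, 531 and 356 normalized counts in DMSO input and 532, 502 and 481 in trametinib input. These groups overlapped, and the log2 change of 0.08 (SE 0.18, adjusted p = 0.781, edgeR) had a 95% interval from -0.28 to 0.43. In footprints MDM2 had 677, 578 and 681 normalized counts in DMSO and 703, 708 and 831 with trametinib. All trametinib libraries were above all DMSO libraries by a narrow margin, but the change of 0.20 (SE 0.12, adjusted p = 0.189, edgeR) did not pass the test. Scaling to library totals instead of TMM gave 0.39 (adjusted p = 0.0199, edgeR), with the median of all genes then at 0.187.

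MDM4 (chr1:204516379-204558120, plus strand), which binds and masks the transactivation domain of p53, was one of the genes that fell. Input libraries had 489.7, 389 and 318 normalized counts in DMSO and 190.1, 237 and 242 with trametinib, with no overlap between the treatments. Its mRNA was at 56.1% of the DMSO level, a log2 change of -0.83 (SE 0.20, adjusted p = 0.00647, edgeR). Footprints fell as well, from 229, 191 and 193 to 138, 165 and 145 normalized counts. This decrease of -0.46 (SE 0.13, adjusted p = 0.0187, edgeR) missed the threshold without trametinib replicate 1 (adjusted p = 0.0866) or replicate 3 (0.0589) and with library totals (0.11).

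FAS (chr10:88953813-89029605, plus strand), the death receptor bound by Fas ligand, was the only gene of the 9 that passed the test in footprints and not in input. Input libraries had 58.2, 69.1 and 72.6 normalized counts in DMSO and 69.8, 48.9 and 74.6 with trametinib. Their ranges overlapped widely, and the change was -0.04 (SE 0.26, adjusted p = 0.928, edgeR). Footprints went from 101, 121 and 121 normalized counts to 73.4, 78.1 and 83.7, a fall of 0.55 on the log2 scale (SE 0.14, adjusted p = 0.0108, edgeR). The footprint call was lost without trametinib replicate 1 (adjusted p = 0.0543) and with library totals (0.0575). A call in one assay and not in the other is not a difference between them. The direct test of that difference, the ribosome density change, gave -0.50 with a 95% interval from -1.11 to 0.12 (adjusted p = 0.82, DESeq2).

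ZMAT3 (chr3:178960121-179072215, minus strand), which encodes a zinc finger RNA-binding protein with growth-suppressive activity, rose in both assays. In input it had 73.3, 75.6 and 67.9 normalized counts with DMSO and 152, 106 and 149 with trametinib. The lowest trametinib library was well above the highest DMSO library, and the mRNA rose 1.88-fold, a log2 change of 0.91 (SE 0.23, adjusted p = 0.00903, edgeR). Footprints increased from 117, 101 and 119 to 169, 164 and 148 normalized counts, by 0.51 (SE 0.13, adjusted p = 0.011, edgeR). Without trametinib replicate 1 or replicate 2 the adjusted p of the footprint change was 0.064 or 0.0511.

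TP53I3 and FDXR, which encode enzymes of electron transfer, rose in both assays. TP53I3 (chr2:24077433-24085861, minus strand), an NADPH-dependent quinone reductase, had 104, 117 and 77.3 normalized counts in DMSO input and 168, 198 and 180.0 in trametinib input. Its footprints went from 112, 111 and 89.9 to 188, 208 and 222. Both assays separated the treatments completely, with an input change of 0.88 (SE 0.22, adjusted p = 0.00777, edgeR) and a footprint change of 0.97 (SE 0.14, adjusted p = 0.000526, edgeR), the latter a 1.97-fold rise. FDXR (chr17:74862497-74873031, minus strand) encodes ferredoxin reductase, which passes electrons from NADPH into mitochondrial iron-sulfur cluster and steroid synthesis. It had 628, 605 and 759 normalized counts in DMSO input and 1028, 1155 and 1129 with trametinib. Footprints were at 506, 584 and 561 and at 808, 874 and 794. FDXR mRNA was thus 1.67-fold higher, with a change of 0.74 (SE 0.15, adjusted p = 0.00275, edgeR), and footprints rose by 0.58 (SE 0.11, adjusted p = 0.00226, edgeR). Both genes kept their calls in both assays when any 1 library was left out.

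RRM2B and SESN1 passed the test in neither assay. RRM2B encodes the p53-inducible small subunit of ribonucleotide reductase, which supplies deoxynucleotides for DNA repair and for mitochondrial DNA. Input values were 304, 318 and 297 normalized counts with DMSO and 368, 365 and 334 with trametinib. Footprint values were 623, 579.7 and 641 with DMSO and 687, 656 and 793 with trametinib. The trametinib libraries lay above the DMSO libraries in both assays, yet the changes of 0.22 in input (SE 0.16, adjusted p = 0.297, edgeR) and 0.20 in footprints (SE 0.11, adjusted p = 0.163, edgeR) missed the threshold. With library totals the footprint change was 0.39 (adjusted p = 0.0159, edgeR). SESN1 (chr6:108984309-109094846, minus strand), a sestrin that restrains mTORC1, had 71.2 to 96.0 normalized counts in DMSO input and 86.6 to 103 with trametinib. Its footprints ranged from 48.3 to 102 with DMSO and from 82.3 to 116 with trametinib. Both pairs of ranges overlapped, DMSO replicate 1 was the lowest library in both assays, and without it the footprint change went from 0.26 to -0.02.

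Across the 9 genes, 4 had all trametinib input libraries above all DMSO input libraries and 2 had them all below. This was so for 23.2% and 23.3% of all tested genes. In footprints the numbers were 5 and 3, beside 30.1% and 28.9% of all tested genes.

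GDF15 (chr19:18374731-18389176, plus strand), a secreted stress cytokine of the TGF-beta superfamily, had by far the largest change of the 9 genes. DMSO input libraries had 4823, 1642 and 1386 normalized counts, and trametinib input libraries had 116, 129 and 144. DMSO footprint libraries had 9804, 3729 and 1812, and trametinib footprint libraries had 171, 165 and 146. The trametinib libraries were close to one another, whereas DMSO replicate 1 was far above the other DMSO libraries in both assays. The mRNA was 20.1-fold lower with trametinib (log2 change -4.33, SE 0.43, adjusted p = 9.6e-06, edgeR) and footprints were 32.0-fold lower (-5.00, SE 0.57, adjusted p = 0.000145, edgeR). Without DMSO replicate 1 these changes were -3.54 (adjusted p = 4.17e-11) and -4.11 (adjusted p = 2.76e-09).

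GDF15 is activated by p53 and also by the ATF4 branch of the integrated stress response, so the mRNAs of that response were read alongside it. The 8 listed stress response mRNAs in the table summed to 19631, 9334 and 7087 normalized counts in DMSO input and to between 2647 and 3222 with trametinib. In footprints the sums were 21145, 8439 and 4809.9 in DMSO and 1837 to 1929.5 with trametinib. DMSO replicate 1 was the highest DMSO library for this list as it was for GDF15. Of the 8 mRNAs, 7 were lower in both assays, beside 16.8% of all tested genes in input and 24.5% in footprints. The exception was ATF3, with changes of -0.43 (SE 0.42, adjusted p = 0.461, edgeR) and -0.49 (SE 0.38, adjusted p = 0.312, edgeR). ATF4, the transcription factor that drives the response, went from 5011 ± 1554 to 1796 ± 222 normalized counts in input (SD, n = 3), a change of -1.47 (SE 0.20, adjusted p = 0.000156, edgeR). ATF4 footprints changed by -3.25 (SE 0.44, adjusted p = 0.000397, edgeR), or by -2.60 without DMSO replicate 1. ATF4 ribosome density changed by -1.76 (SE 0.52, adjusted p = 0.0436, DESeq2). This call was lost with TMM scaling, with library totals, with other filters on low counts and by edgeR. It was also lost when any 1 library other than DMSO footprint replicate 3 was left out. TRIB3, a pseudokinase induced by ATF4, fell by 4.45 on the log2 scale (SE 0.50, adjusted p = 2.47e-05, edgeR), about as far as GDF15, and its change was -3.56 without DMSO replicate 1 (adjusted p = 2.75e-10). Over the 8 mRNAs the median change was -2.80 in input, or -2.03 without that replicate, and -3.13 in footprints, or -2.39 without it. In each case 7 of 8 mRNAs were lower, while ATF3 was at 0.30 in input and 0.19 in footprints without that replicate. Whether the stress response had a part in the fall of GDF15 was not tested.

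**Figure D2:**
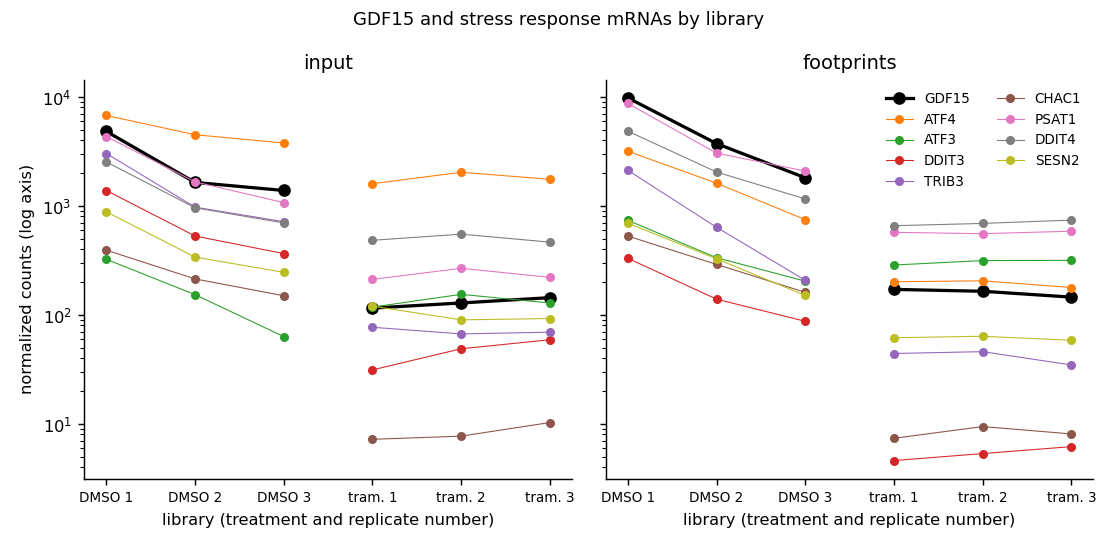
Normalized counts on a log axis of GDF15 (black) and 8 stress response mRNAs in the 6 input libraries (left) and 6 footprint libraries (right), with lines joining the libraries of 1 treatment only to guide the eye along a gene. GDF15 and every stress response mRNA are highest in DMSO replicate 1 among the DMSO libraries of each assay, and the trametinib libraries lie close together.

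The second question was whether trametinib altered how densely ribosomes occupied these mRNAs. By DESeq2's likelihood ratio test of the interaction between assay and treatment, 0 of 9 genes passed at an adjusted p-value under 0.05. Among all 10623 genes tested, 1.74% passed. An unadjusted p under 0.05 was reached by 0 of 9 genes, beside 837 of all 10623. edgeR's quasi-likelihood test of the same interaction also called 0 of 9. The changes ran from -0.66 for GDF15 to 0.39 for MDM4, and the smallest adjusted p, of FAS, was 0.82. Each interval gives the changes compatible with the estimate of 1 gene. It is not a limit of detection, since calls were made on p-values adjusted over all tested genes. The narrowest belonged to FDXR, with a change of -0.15 and a 95% interval from -0.49 to 0.19, and to RRM2B, with -0.01 and an interval from -0.37 to 0.35. MDM2 changed by 0.14, with an interval from -0.32 to 0.59. MDM4 changed by 0.39 (interval -0.12 to 0.89), ZMAT3 by -0.40 (-0.93 to 0.14) and TP53I3 by 0.11 (-0.41 to 0.63). SESN1, at 0.10, had an interval from -0.70 to 0.90. GDF15 had the widest interval, from -2.46 to 1.14, and its change was 0.23 without the DMSO footprint library of replicate 1 and -1.45 without the DMSO input library of that replicate. Without both of these libraries it was -0.56.

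**Figure D3:**
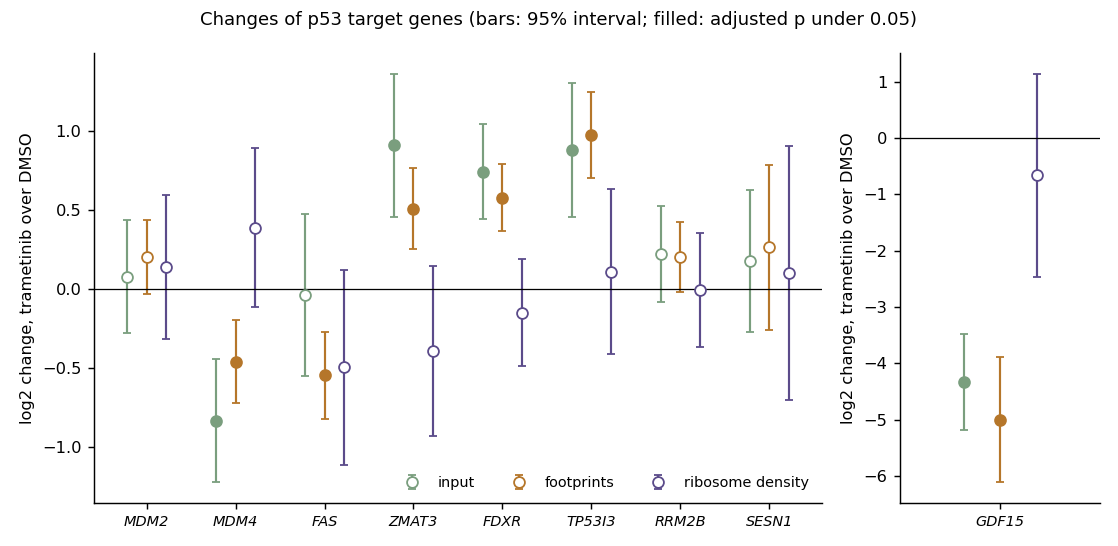
Log2 change of trametinib over DMSO in input, footprints and ribosome density for each of the 9 genes, with 95% intervals as bars; filled points have an adjusted p under 0.05, and GDF15 is drawn on its own axis. Input and footprint points of TP53I3, ZMAT3, FDXR, MDM4 and GDF15 are filled, the footprint point of FAS is filled, and every interval for ribosome density includes 0.

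Within a treatment, the 9 mRNAs nevertheless covered a broad span of ribosome density. Log2 ribosome density was taken per pair of same-numbered input and footprint libraries from normalized counts, so that a value of about 0 is typical and the length of the reading frame cancels. In DMSO, RRM2B was highest at 1.00 ± 0.12 (SD, n = 3), above 86.2% of 10601 genes. GDF15 followed at 0.86 ± 0.42, FAS at 0.78 ± 0.04, ZMAT3 at 0.63 ± 0.20 and MDM2 at 0.45 ± 0.43. The spreads of these 5 neighbours overlapped from each to the next. TP53I3 at 0.09 ± 0.15, SESN1 at -0.17 ± 0.35 and FDXR at -0.27 ± 0.20 lay near or below the median of all genes, 0.05, and overlapped one another as well. MDM4 was lowest at -0.95 ± 0.20, with only 16.7% of genes below it, and its pairs of libraries, at -1.10, -1.03 and -0.72, were all below those of the other 8 genes.

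With trametinib the ends of this order were the same. RRM2B was again highest at 1.00 ± 0.22 and MDM4 lowest at -0.58 ± 0.14, with 28.3% of genes below it. MDM4 overlapped FDXR (-0.42 ± 0.08), which it had not done in DMSO. MDM2, at 0.56 ± 0.20, was second in the order. GDF15 stood at 0.31 ± 0.28, FAS at 0.31 ± 0.32 and ZMAT3 at 0.26 ± 0.34, and these neighbours did not differ beyond their spread. FAS pairs were at 0.79, 0.80 and 0.73 in DMSO and at 0.07, 0.68 and 0.17 with trametinib. It was the 1 gene of the 9 whose trametinib pairs all lay below the DMSO pairs, beside 8.99% of 10586 genes, and 0 of 9 had them all above, beside 7.93%.

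**Figure D4:**
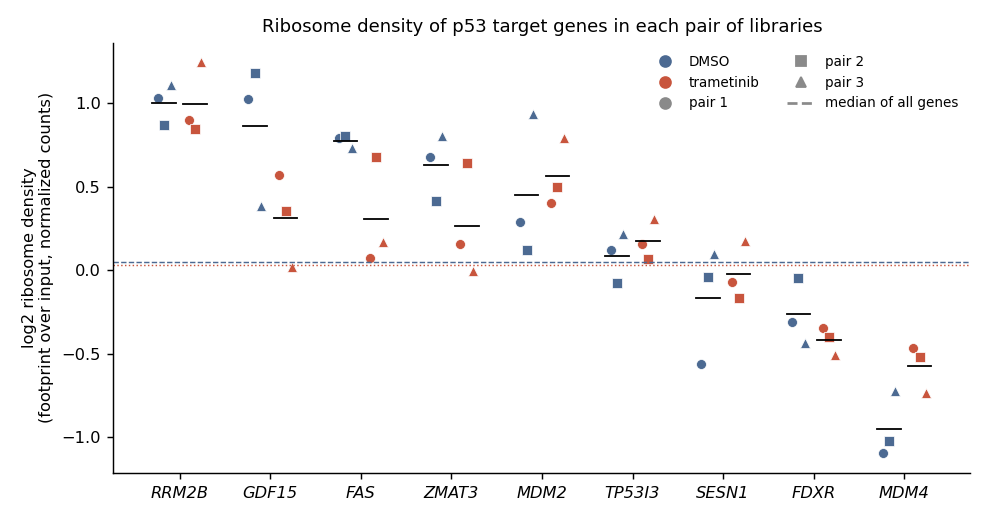
Log2 ribosome density (normalized footprint count over normalized input count) of the 9 genes in each pair of libraries, ordered by the DMSO mean; blue marks DMSO, red trametinib, symbols the pair number, black lines the mean of 3 pairs, and the dashed and dotted lines the median of all genes in DMSO and trametinib. RRM2B lies at about 1.00 and MDM4 lowest under both treatments, and the pairs of the 2 treatments overlap for every gene except FAS.

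Levels were compared between genes only per length, as normalized counts per 1000 codons of the MANE Select reading frame. In DMSO input GDF15 was highest at 8497 ± 6217 (SD, n = 3), carried largely by replicate 1, followed by FDXR at 1352 ± 169 and MDM2 at 967 ± 218. RRM2B at 873 ± 29.4 and MDM4 at 814 ± 176 overlapped MDM2, and the other 4 genes were between 155 for SESN1 and 299 for TP53I3. With trametinib, FDXR was highest in input at 2248 ± 137, and GDF15 was seventh at 420.1 ± 46.2. In footprints of trametinib-treated cells, RRM2B led at 2028 ± 204 per 1000 codons, ahead of FDXR at 1681 ± 87.4 and MDM2 at 1503 ± 146, whose ranges overlapped. SESN1 was the lowest of the 9 genes in all 4 groups.

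The genes whose pattern over the 12 libraries was most like that of MDM2, after each gene was centred within each assay, were ZZZ3 (Pearson's r = 0.954), PCM1 (0.95) and RO60 (0.941), of 7667 genes compared. These values describe the shared rise and fall over 12 libraries that also share depth and dish.

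CDKN1A, a p53 target that encodes the cell cycle inhibitor p21, is named for orientation and was picked outside the rule for named genes. Its mRNA was at 863 ± 232 normalized counts in DMSO and 855 ± 117 with trametinib (SD, n = 3), with an input change of -0.01 (SE 0.20, adjusted p = 0.985, edgeR). Its footprint change was -0.38 (SE 0.18, adjusted p = 0.114, edgeR). p53 acts through its protein level and modifications, which these libraries do not read.

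A list of 46 further p53 targets, 44 of them in the table, was read next to the 9 genes. In input, 11 of the 41 tested were higher, 7 lower and 23 neither, that is 26.8% higher and 17.1% lower beside 15.4% and 16.8% of all genes, with a median change of 0.23. Without DMSO replicate 1 the counts were 11 and 8, and without trametinib replicate 3 they were 7 and 5. In footprints 13 of 43 were higher and 9 lower, 30.2% and 20.9% beside 24.1% and 24.5% of all genes, with a median of 0.16. Without DMSO replicate 1 these counts were 16 and 13, and with library totals 20 and 8. The list thus held genes moving in both directions, as the 9 did. In ribosome density 0 of 41 passed at an adjusted p under 0.05 by DESeq2 or by edgeR, beside 1.74% of all genes by DESeq2. An unadjusted p under 0.05 by DESeq2 was reached by 0 of 41, beside 837 of all 10623 genes.

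Among the targets that rose, ALDH4A1, a mitochondrial enzyme of proline breakdown, went from 99.7 ± 12.0 to 250.02 ± 55.8 normalized counts in input (SD, n = 3), a change of 1.33 (SE 0.22, adjusted p = 0.000613, edgeR). SFN, which encodes the cell cycle checkpoint protein 14-3-3 sigma, went from 1015 ± 270.2 to 2113 ± 265, a change of 1.07 (SE 0.19, adjusted p = 0.00105, edgeR). BTG2, an antiproliferative gene, rose by 1.12 in input. APAF1, the core of the apoptosome, rose by 0.89 and FUCA1, a lysosomal fucosidase, by 0.85. The footprint changes of BTG2 (0.38, adjusted p = 0.124, edgeR) and APAF1 (0.56, adjusted p = 0.0656, edgeR) did not pass the test. Among called targets with a mean of at least 50 normalized counts, TP53INP1 and PHLDA3 rose most in footprints. TP53INP1, a promoter of p53-dependent death and autophagy, rose by 1.99 (SE 0.14, adjusted p = 9.19e-06, edgeR). It also rose in input, by 1.61 (SE 0.36, adjusted p = 0.0046, edgeR). PHLDA3, an inhibitor of AKT, rose by 1.46 in footprints. The highest footprint change on the list, 3.44, belonged to a gene that did not meet these conditions. The input change of PHLDA3 (0.80, adjusted p = 0.094, edgeR) did not pass the test. KITLG, the ligand of the KIT receptor, rose by 1.07 in footprints.

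Among the targets that fell, PLK3, a stress-responsive polo-like kinase, fell from 393 ± 87.3 to 57.2 ± 28.8 normalized counts in input (SD, n = 3), a change of -2.77 (SE 0.30, adjusted p = 1.6e-05, edgeR), and by 3.49 in footprints. TNFRSF10A, a receptor for the death ligand TRAIL, went from 286 ± 6.62 to 71.2 ± 3.92, a change of -1.99 (SE 0.19, adjusted p = 6.68e-06, edgeR). The related receptor TNFRSF10B went from 1202 ± 874 to 509.7 ± 31.0, a change of -1.23 in input and -1.41 in footprints, which was -0.45 and -0.57 without DMSO replicate 1. PMAIP1, which encodes the BH3-only protein NOXA, changed by -1.15 in input and -1.99 in footprints. SESN2, a sestrin that is also on the stress response list, changed by -2.27 and -2.68, or by -1.52 and -1.94 without DMSO replicate 1. AEN, an apoptosis-enhancing nuclease, changed by -1.48 in footprints.

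**Figure D5:**
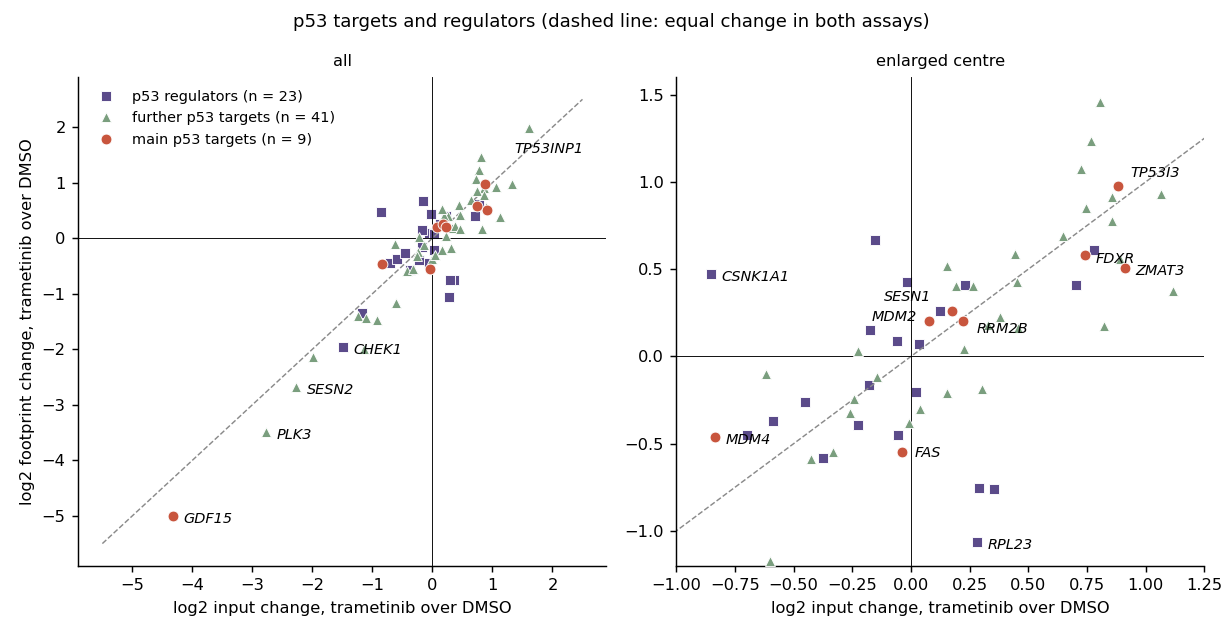
Log2 change in input (horizontal) against log2 change in footprints (vertical) for the 9 genes, 41 further p53 targets and 23 regulators of p53, with all genes on the left and the centre enlarged on the right; the dashed line marks equal change in both assays. GDF15 lies at -4.33 and -5.00, TP53I3, FDXR and ZMAT3 lie at the upper right, and CSNK1A1 and RPL23 stand away from the line.

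Among the regulators of p53, 4 genes changed in ribosome density, and 3 of these encode ribosomal proteins. Of the 23 listed, 3 were higher and 4 lower in input and 4 were higher and 9 lower in footprints, or 30.4% and 56.5% in either direction beside 32.1% and 48.6% of all genes. With library totals the footprint counts were 6 and 6. The count higher in input was 1 without trametinib replicate 1 or replicate 2, and the count higher in footprints was 2 without trametinib replicate 1 or replicate 3 and 1 without replicate 2. In ribosome density 1 of the 23 was higher and 3 were lower, with the same counts by edgeR. Of all genes tested by DESeq2, 0.329% were higher and 1.41% lower. The 3 that fell were RPL23, RPL5 and RPL11, ribosomal proteins that, when free of the ribosome, bind MDM2 and block its ligase activity. The paper reports lower ribosome density with trametinib for many 5'TOP mRNAs, a class that encodes ribosomal proteins and some translation factors. Whether the fall of these 3 mRNAs went beyond that of other ribosomal protein mRNAs was not tested. RPL23 input was 11199 ± 322 normalized counts in DMSO and 13548 ± 521 with trametinib (SD, n = 3). Its footprints were 6851 ± 524 and 3293 ± 263, which gave a density change of -1.33 (SE 0.13, adjusted p = 2.38e-19, DESeq2). RPL5 changed in density by -1.10 (SE 0.20, adjusted p = 1.11e-05, DESeq2) and RPL11 by -1.03 (SE 0.13, adjusted p = 1.38e-12, DESeq2). Their input changes were alike, at 0.35 for RPL5 (adjusted p = 0.0499, edgeR), 0.29 for RPL11 (0.102) and 0.28 for RPL23 (0.0992). The adjusted p of RPL5 ranged from 0.0286 to 0.171 over the other fits tried.

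The regulator whose ribosome density rose was CSNK1A1, a casein kinase that works with MDM4 to inhibit p53. Its mRNA fell from 951 ± 268 to 525 ± 148 normalized counts (SD, n = 3), a change of -0.85 (adjusted p = 0.0146, edgeR), whereas footprints were higher, at 1568 ± 276 and 2187 ± 57.0, a change of 0.47 (adjusted p = 0.0211, edgeR). This amounted to a density change of 1.34 (SE 0.33, adjusted p = 0.0043, DESeq2). CSNK1A1 has near-identical copies elsewhere in the genome, and only reads unique to its symbol were counted, so its level is uncertain. CHEK1 and CHEK2, the checkpoint kinases that phosphorylate p53, fell in both assays, by 1.49 and 1.18 in input and by 1.95 and 1.34 in footprints. The deubiquitinase USP7, which stabilizes MDM2 and p53, fell by 0.70 in input (SE 0.16, adjusted p = 0.00467, edgeR). DYRK2, a kinase of p53, rose by 0.78 in input and 0.61 in footprints. TP53BP1, a DNA damage mediator, rose by 0.70 in input, while its footprint change of 0.41 did not pass the test (adjusted p = 0.157, edgeR). In footprints HIPK2, another kinase of p53, rose by 0.67 and the ubiquitin ligase COP1 by 0.41. The input changes of HIPK2 (-0.15, adjusted p = 0.604, edgeR) and COP1 (0.23, adjusted p = 0.272, edgeR) did not pass.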

How the data were processed

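Ribo-seq counts of 12 libraries (3 per group) were used. According to the authors' methods, reads aligning to rRNA or tRNA were discarded with Bowtie (1.2.2 per the submitters' processing notes), the rest were mapped to Gencode transcripts, and reads inside open reading frames unique to a gene symbol were counted. The deposited table of the authors holds these raw counts for 15798 genes. It also holds 12 columns of normalized values per library, columns of fold changes and adjusted p-values by DESeq2 (1.46.0) and flags for gene lists, none of which were used. Input and footprint RNA were size-selected alike, so both were counted over the reading frame only. Libraries are scaled to one another, and a change shared by all mRNAs cannot be seen. Reads shared between near-identical genes were not counted by the authors.

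edgeR 4.0.16 (quasi-likelihood, TMM) compared the treatments separately for each assay, over its 6 libraries and over genes that reached 10 counts in 3 or more of them. Ribosome density change was the interaction of assay and treatment over 12 libraries (DESeq2 1.42.0 in R 4.3.3, likelihood ratio test, median-of-ratios size factors, independent filtering off), the kind of test named in the study, over genes that reached that minimum in both assays. P-values were adjusted over all tested genes by the Benjamini-Hochberg method and called under 0.05. With 3 libraries per group, p-values weigh a change against the spread between these replicates. The main density test did not pair the input and footprint libraries of a lysate. Intervals are the estimate plus or minus the normal 95% range of its SE. Normalized counts are counts divided by median-of-ratios size factors over all 12 libraries. The scripts were tested on simulated counts. Gene coordinates are from Gencode V44 on GRCh38, and sequences are RefSeq start windows on GRCh38.p14.

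The 9 genes and all lists were chosen with earlier results of these data known, and counts over a list are descriptions. The 9 genes were named in every comparison. From the further p53 targets and the regulators, up to 5 called genes in each direction with the largest log2 change and a mean of at least 50 normalized counts were named. CDKN1A, the stress response mRNAs and the density values of list genes given beside their other values lie outside that rule. The likeness to MDM2 used log2(normalized count + 1) of genes with a mean of at least 100.

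The labels number the replicates alike in every group. By the study's methods, input and footprints came from one lysate, but the deviations of same-numbered input and footprint libraries from the mean of their group had Pearson's r of 0.816, 0.181 and 0.343 (DMSO) and 0.141, 0.0803 and -0.122 (trametinib) over 7669 genes. Across treatments the same number gave 0.068, 0.0484 and 0.334 in input, and 0.117, 0.133 and 0.294 in footprints. By the criterion of more than 0.1 in every pair, numbers paired the footprint libraries across treatments and not the input libraries. Within a treatment, the input and footprint pairs of DMSO met this criterion and those of trametinib did not. Fits with a replicate block were run for every comparison. The values of list genes without DMSO replicate 1 and of the lists under each alternative were added after seeing the data. Some items are not reported here.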

Additional observations from a re-analysis of the deposited data

How the results depend on the processing

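Of the 5 input calls among the 9 genes, all kept their direction and side of the threshold in every fit tried (other scaling, filters, DESeq2, replicate block, each library left out). Footprint calls of TP53I3, FDXR and GDF15 did so too. With library totals, which moved the median footprint change of all genes to 0.187, 5 of the 9 genes were higher and 1 lower in footprints instead of 3 and 3. Leaving out 1 library gave 1 to 3 lower. The replicate block changed no call among the 9 genes in any comparison, but the count of all genes with higher ribosome density went from 35 to 20 with it, and to 25 with a block for each dish. That count was 143 with library totals, 9 with edgeR and 7 to 39 with 1 library left out. The count with lower density was 150, or 87 with edgeR. Input genes higher numbered 1641, and 1069 to 1767 with 1 library left out. With library totals, 4034 genes were higher and 2074 lower in footprints, against 2876 and 2926. The causes of these differences were not tested.

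Several changes that did not pass the test in any of these fits reversed. With 1 library left out, input changes ranged from -0.0915 to 0.193 for MDM2 and from -0.158 to 0.119 for FAS, and the footprint change of SESN1 from -0.0156 to 0.519. Ribosome density changes with 1 library left out ranged from -0.034 to 0.246 for TP53I3, -0.166 to 0.349 for SESN1, -0.0838 to 0.0572 for RRM2B and -1.45 to 0.23 for GDF15, whose highest value came without DMSO footprint replicate 1. Without both libraries of DMSO replicate 1, a fit chosen after seeing the data, SESN1 was at -0.0524 and RRM2B at 0.00786. RRM2B was at 0.0608 with TMM, 0.168 with library totals and 0.0621 with edgeR, and FDXR at 0.0267 with library totals. Low input depth, with 19 to 63 counts per library for FAS, ZMAT3 and SESN1, limits the precision of their density.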
